A study of Mus musculus with 4 samples.

Results

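The regions described here are stretches of intergenic chromatin far from any annotated gene start at which acetylation of histone H3 on lysine 9 (H3K9ac) was called different between a low and a high choline level. They were taken by position alone: the midpoint of a condition 2 region had to lie in no annotated gene span of any type and more than 10 kb from every annotated transcript start (GENCODE M21, build mm10). Of the 45495 condition 2 regions, 6520 met this rule (14.3%, exact 95% interval 14.0 to 14.7), and they covered 1121 kb. Of the 360 condition 1 regions, 36 met it (10.0%, 7.10 to 13.6). The rule set no condition on score, width or sequence, and all 6520 regions are used below, with no filter on low values.

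The study kept HT22 cells, an immortalised mouse hippocampal line, at 5 µM (control) or at 70 µM (supplemented) choline chloride over 48 h, in the same serum-containing high-glucose medium. Chromatin immunoprecipitation with sequencing (ChIP-seq) gave 4 libraries, 2 from input DNA and 2 from H3K9ac precipitates, and the labels do not give the choline level of any of them. At most 1 ChIP library therefore stood for each level, no difference can be weighed against variation between cultures, and every share below is a description whose exact interval covers counting over regions only. Condition 2 is taken to be 70 µM because the region names put 5 before 70; the name of the deposited list as a whole speaks of input against H3K9ac instead, and the 2 readings cannot be told apart from the list alone. Every statement on condition 2 as the high choline level rests on the region names. By that reading, regions with H3K9ac at both levels alike are not in the list. Library depth is unknown here, and a region's score in the authors' deposited table, whose column has no name, is the only measure of its strength.

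Active enhancers and promoters carry acetylated histone tails, and acetylation of lysine 9 weakens the hold of the histone tail on DNA and recruits readers of acetyl-lysine. Intergenic sequence holds enhancers that act on genes over long distances, but it is also where most transposon remnants, tandem arrays and gene deserts lie. The gene whose start is nearest to an intergenic element is a customary guess at its target and often not the gene it acts on, so nearest genes are given below as addresses only.

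A few whole regions show what these stretches look like as sequence. All are plus-strand sequence of GRCm38.p6 (the same build as mm10). The soft-masked bases mentioned are those that the reference gives in lower case as repetitive. The case of the letters printed below has another meaning. No annotation of repeat class was at hand, so the kind of repeat is not known here. The first 3 rank highest by score in the authors' deposited table, at 34.02, 32.59 and 31.91, and the capitals mark the central 32 bases, whose exact copies on both strands of the assembled chromosomes were counted. The region near Gm12830 (chr4:114725478-114725677) is 70.0% soft-masked with a central word that occurs once. The region near Kcnd3 (chr3:105412387-105412519), a gene for a potassium channel subunit, has no soft-masked base and also a word that occurs once. The region nearest to Cenpc1 (chr5:85543056-85543270) is soft-masked throughout, and its central word occurs 4107 times.
Gm12830 region: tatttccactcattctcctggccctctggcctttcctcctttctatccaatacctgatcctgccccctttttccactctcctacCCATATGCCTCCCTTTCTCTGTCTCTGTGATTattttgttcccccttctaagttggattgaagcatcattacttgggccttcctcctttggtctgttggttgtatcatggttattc
Kcnd3 region: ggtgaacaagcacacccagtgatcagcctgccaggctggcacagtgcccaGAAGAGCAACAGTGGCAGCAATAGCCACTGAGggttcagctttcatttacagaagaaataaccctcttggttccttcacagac
Cenpc1 region: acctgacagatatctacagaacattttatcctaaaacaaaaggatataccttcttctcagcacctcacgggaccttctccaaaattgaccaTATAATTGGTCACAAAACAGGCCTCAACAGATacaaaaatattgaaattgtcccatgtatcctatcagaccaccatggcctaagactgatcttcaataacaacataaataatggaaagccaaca

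The next 3 are the highest-scoring regions of the 3 largest clusters, shown because the clusters differ in how unique their sequence is. In the regions near Ezh2 (chr6:47651741-47651955) and Pdia4 (the central 300 bases, chr6:47758572-47758871, of a region of 473 bp), capitals mark every base in a 32-base word that another region of the same cluster also holds. In the region near Plin2 (chr4:86705472-86705640), which shares no such word with its cluster, capitals mark the central word, which occurs 8446 times.
Ezh2 cluster region: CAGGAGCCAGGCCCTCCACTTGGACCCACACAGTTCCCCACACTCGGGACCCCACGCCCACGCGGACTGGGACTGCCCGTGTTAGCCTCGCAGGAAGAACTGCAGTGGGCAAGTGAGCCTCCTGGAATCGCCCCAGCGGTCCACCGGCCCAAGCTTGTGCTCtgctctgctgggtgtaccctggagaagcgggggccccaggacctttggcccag
Plin2 cluster region: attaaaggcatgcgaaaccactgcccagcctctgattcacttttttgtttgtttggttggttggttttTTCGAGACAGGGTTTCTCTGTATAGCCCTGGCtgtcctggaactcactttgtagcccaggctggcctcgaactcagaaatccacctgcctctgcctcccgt
Pdia4 cluster region: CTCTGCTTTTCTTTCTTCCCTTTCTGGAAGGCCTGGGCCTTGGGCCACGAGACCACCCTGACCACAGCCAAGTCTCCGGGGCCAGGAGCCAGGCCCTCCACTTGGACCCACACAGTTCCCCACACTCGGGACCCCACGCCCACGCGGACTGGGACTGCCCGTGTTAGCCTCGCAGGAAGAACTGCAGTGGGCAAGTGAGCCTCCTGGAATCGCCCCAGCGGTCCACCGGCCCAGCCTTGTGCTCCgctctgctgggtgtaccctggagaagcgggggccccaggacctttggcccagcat

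The last 3 are the highest-scoring regions that hold the AP-1 letters TGANTCA, which are in capitals. These letters are a loose form of the site of Fos and Jun dimers, TGAGTCA or TGACTCA, because N may be any base. The Shisa6 region holds TGATTCA, which fits the loose form only. They lie at chr19:30360851-30361067, nearest to Mbl2, at chr11:66654824-66655023, nearest to Shisa6, and at chr15:94615785-94616066, nearest to Tmem117, and the central word of each occurs once.
Mbl2 region: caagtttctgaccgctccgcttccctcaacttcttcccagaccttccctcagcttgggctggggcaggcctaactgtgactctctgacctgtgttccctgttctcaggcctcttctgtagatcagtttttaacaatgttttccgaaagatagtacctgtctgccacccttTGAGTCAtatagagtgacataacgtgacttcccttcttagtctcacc
Shisa6 region: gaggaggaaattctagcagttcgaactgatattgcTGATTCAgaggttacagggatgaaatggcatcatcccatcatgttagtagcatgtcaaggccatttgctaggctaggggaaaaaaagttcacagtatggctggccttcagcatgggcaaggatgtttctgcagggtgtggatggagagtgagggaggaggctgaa
Tmem117 region: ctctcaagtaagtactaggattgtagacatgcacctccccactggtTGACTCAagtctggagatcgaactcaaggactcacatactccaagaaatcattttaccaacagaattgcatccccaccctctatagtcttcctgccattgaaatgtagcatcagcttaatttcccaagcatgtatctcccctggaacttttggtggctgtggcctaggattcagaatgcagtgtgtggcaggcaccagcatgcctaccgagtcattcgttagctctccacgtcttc

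Intergenic far sequence was thinly covered. It made up 39.1% of the assembled bases (1035 Mb) and held 14.3% of the condition 2 regions, at 6.30 regions per Mb, against 17.2 per Mb over all assembled sequence and 26.5 per Mb in gene spans. In width and score the intergenic far regions were close to the 6562 condition 2 regions that lie in introns equally far from any start. The median width was 161 bp in intergenic far sequence, 162 bp in far introns and 183 bp within 1 kb of a start. The intergenic far regions had a median score of 10.2 in the authors' deposited table (quartiles 5.16 and 19.01), against 10.1 for the intronic far regions and 5.04 for the 14014 regions within 1 kb of a start. Scores of the intergenic far regions ran from 3.16 to 34.02. The 5 widest regions reached 796 bp (chr5:118331588-118332383, nearest to 2410131K14Rik) and had scores between 4.74 and 6.99 in the authors' deposited table. The 10 highest-scoring ones were between 123 and 215 bp wide. None of the 5 widest was among the 10 with the highest scores, but width did not fall steadily with score. Median width was 157 bp at scores under 5, 170 bp from 5 to 10 and 161.5 bp from 10 to 15. It was 151.5 bp from 15 to 20 and 170.5 bp at 20 and over.

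Many of these scores were ties. An exact score of 19.00731 was shared by 686 intergenic far regions in the authors' deposited table (10.5%, 9.79 to 11.3), by 583 intronic far regions (8.88%) and by 237 regions within 1 kb of a start (1.69%). The tied regions were narrow, with a median width of 142 bp. At least 50% of the bases were soft-masked in 36.3% of them (32.7 to 40.02), against 25.6% (24.5 to 26.8) of the 5627 regions at neither of the 2 commonest exact scores. A second tie at 4.00929 held 207 regions with a median width of 137 bp, 33.3% of which (27.0 to 40.2) were soft-masked over at least 50% of their bases.

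The clearest feature of the intergenic far regions was their base composition. Their central 200 bp had a median of 48.0% G and C (quartiles 43.0 and 52.5), the same as the intronic far regions at 48.0% and below the 54.5% of regions within 1 kb of a start. All 5173366 windows of 200 bp in the sequence that meets the rule had a median of 40% (quartiles 35 and 45.5). The density of regions rose with every step in base composition. It was 1.07 per Mb (exact Poisson 95% interval 0.942 to 1.21) in windows under 35% G and C, 5.12 (4.84 to 5.41) at 40 to 45%, 19.4 (18.4 to 20.3) at 50 to 55%, and 39.2 (34.2 to 44.7) at 60% and over. Windows of 50% and over thus carried dense regions, while the 23.6% of windows under 35% held 4.0% of the regions. CpG sites were fewer than near starts but more than in the sequence around. The regions held 1.24 CpG per 100 bp, against 1.21 in far introns and 4.52 within 1 kb of a start. Of the 6520 regions, 1632 (25%) held none. Their central 200 bp held a mean of 2.38 CpG sites, against 1.34 in all windows that meet the rule. CpG islands are the CpG-rich and GC-rich stretches of many promoters, and 198 central windows (3.04%) exceeded 60% G and C, against 30.3% of those within 1 kb of a start.

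**Figure D1:**
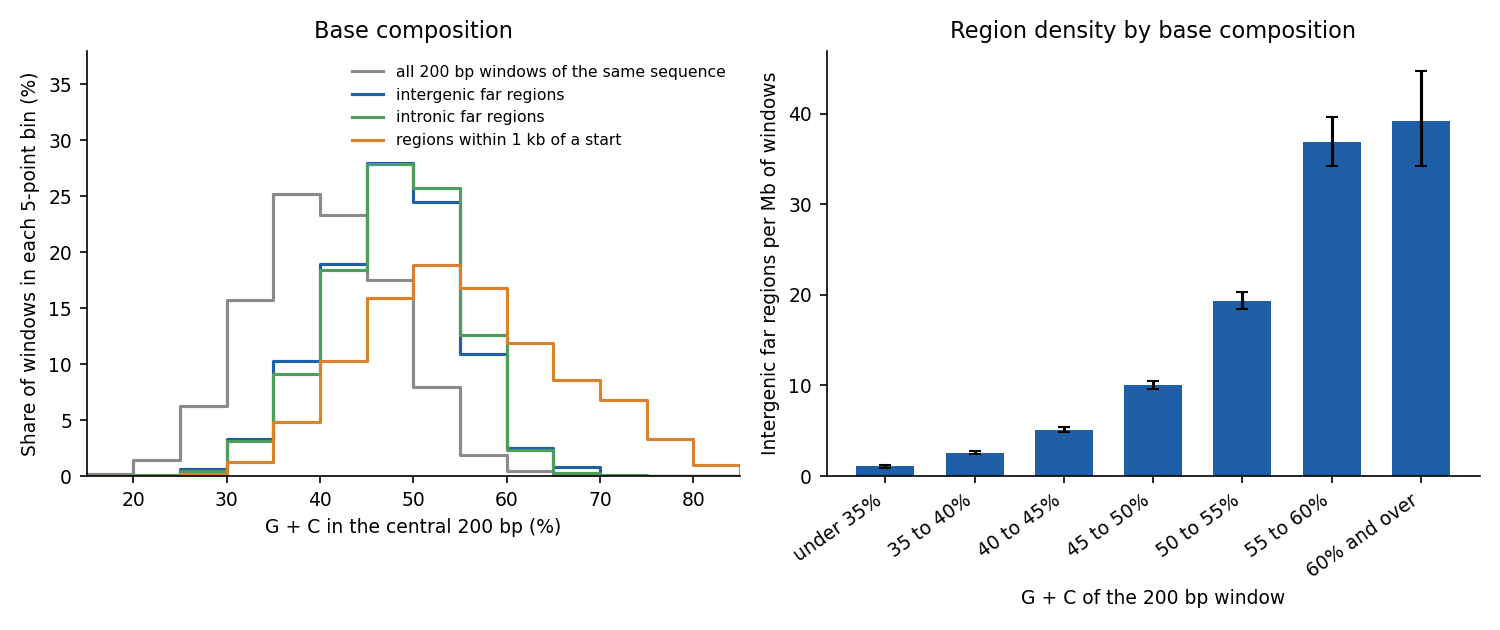
Left, share of 200 bp windows (%) in 5-point bins of G + C content (%) for intergenic far regions, intronic far regions, regions within 1 kb of a start and all windows of the sequence that meets the rule. Right, intergenic far regions per Mb of windows in 7 bins of G + C content, with exact Poisson 95% intervals; the density goes from 1.07 per Mb under 35% to 39.2 per Mb at 60% and over.

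Repeats were present but fewer than in the sequence around. At least 50% of the bases were soft-masked in 1761 regions (27.0%, 25.9 to 28.1), against 16.3% (15.4 to 17.2) of the intronic far regions and 5.49% of those within 1 kb of a start. Over central 200 bp windows the share was 26.5%, and it was 38.3% of all windows that meet the rule. The latter include chromosome Y, where 54430198 of 56303334 bases meeting the rule were soft-masked and only 4 regions lay. The share without chromosome Y was not computed. Windows with no soft-masked base held 10.4 regions per Mb (9.92 to 10.9), and wholly soft-masked windows held 3.43 (3.17 to 3.70). Within each bin of G and C content from 35% up, the density was higher in the less masked windows. At 50 to 55%, windows with under 50% of their bases masked had 25.7 regions per Mb and the others 10.4, and at 60% and over the values were 74.3 and 21.8. In windows under 35% the values were 1.04 and 1.14 per Mb. The wholly masked regions numbered 713 (10.9%, 10.2 to 11.7), and the shares on 20 chromosomes with 100 or more regions ran from 18.1% soft-masked over at least 50% of their bases on chromosome 12 to 52.1% on chromosome X.

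Copy number of the sequence gave a second view of repeats. The central 32 bases occurred more than once in 1054 intergenic far regions (16.2%, 15.3 to 17.1), in 7.70% (7.06 to 8.37) of the intronic far regions and in 4.0% of those within 1 kb of a start. Of these, 306 had 2 to 10 copies, 456 had 11 to 1000 and 292 had over 1000. Short reads may have no unique place in such sequence, and the authors' settings for reads with several placements are not given in the sources used here. Scores did not fall with copy number: the median in the authors' deposited table was 9.96 for regions with a unique word and 17.6 for those with over 1000 copies, 18.2% of which sat at the commonest exact score. The share soft-masked over at least 50% of the bases was 15.8% among the 5466 regions whose central word occurs once.

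The spread over chromosomes was uneven. Chromosome 15 had 598 regions, 14.9 per Mb of its sequence that meets the rule (13.8 to 16.2), which was 2.37 times the density of all chromosomes together. Chromosome 11 followed with 13.1 per Mb (12.0 to 14.3), chromosome 4 with 10.5 (9.69 to 11.3) and chromosome 3 with 10.1 (9.36 to 10.8). These 4 chromosomes held 2453 regions (37.6%) in 20.3% of the sequence that meets the rule. At the other end were chromosome 14 with 2.34 per Mb (1.92 to 2.82), chromosome X with 1.95 (1.67 to 2.27) and chromosome Y with 4 regions in 56.3 Mb. The intervals of chromosomes 15 and 11 lay above those of all others, and those of chromosomes 4, 3, 19 and 17 overlapped.

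The order was much the same for regions elsewhere. Intronic far regions were densest on chromosome 15 (14.2 per Mb of gene spans) and chromosome 11 (10.0) and sparse on chromosomes 14 (1.89) and X (1.92). Over the 19 autosomes and X, the density of intergenic far regions went with that of intronic far regions (Pearson's r = 0.93, Spearman's rho = 0.88) and with that of all other condition 2 regions (r = 0.95, rho = 0.93). These are descriptions over 20 chromosomes that share the same libraries. Base composition of the regions varied little, with medians between 45.7% on X and 49.7% on chromosome 11 among chromosomes with 100 or more regions.

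**Figure D2:**
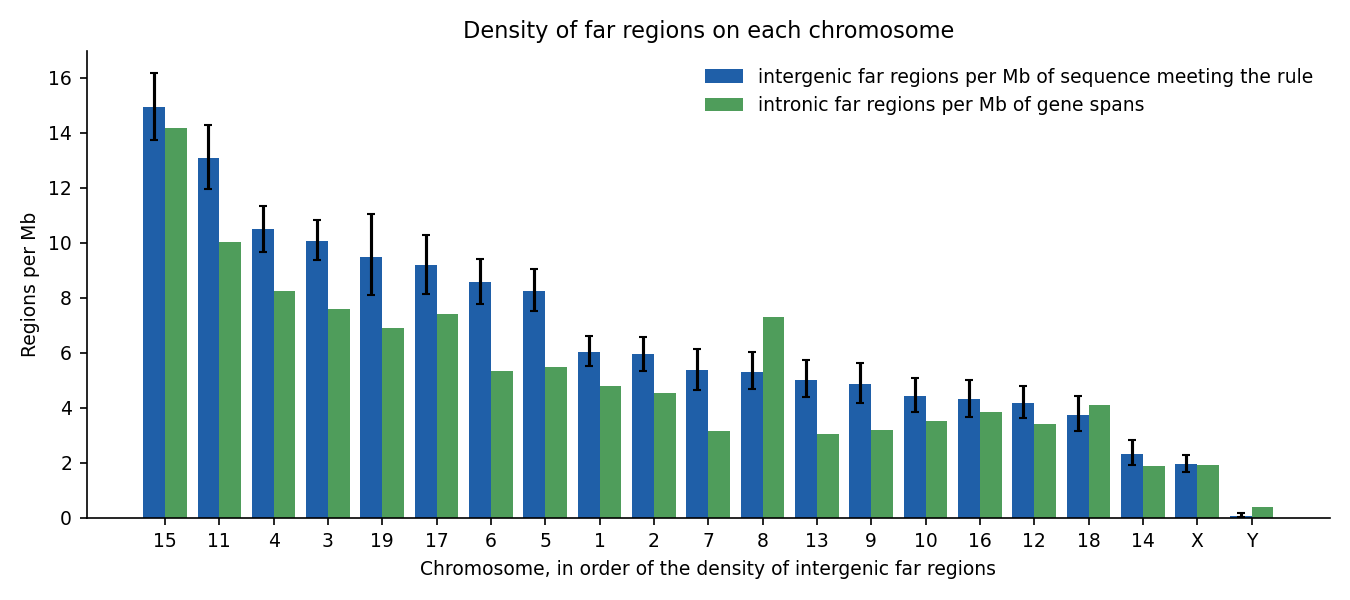
Regions per Mb (vertical axis) on each chromosome (horizontal axis) for intergenic far regions, with exact Poisson 95% intervals, and for intronic far regions. Both bars are highest on chromosomes 15 and 11 and low on 14, X and Y.

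The median distance from an intergenic far region to an annotated start of any kind was 26.3 kb (quartiles 16.1 and 49.6 kb), and to a protein-coding start 58.8 kb (24.6 and 155.4 kb). The nearest start belonged to a protein-coding gene for 2353 regions (36.1%), to a processed pseudogene, a reverse-transcribed gene copy, for 1507 (23.1%) and to a long intergenic non-coding RNA for 1322 (20.3%). By the RefSeq annotation, 836 regions (12.8%) fell inside a gene span. The density fell with distance from a start, from 9.34 per Mb at 10 to 20 kb to 6.94 at 20 to 50 kb, 4.59 at 50 to 100 kb, 3.21 at 100 to 200 kb and 2.32 beyond 200 kb. The 10 kb limit cut through a continuous distribution. The 3 regions just inside it, 10.002 to 10.003 kb from a start, were nearest to Gm9357, Bahcc1 and Eepd1, and the 3 just outside, at 9.976 to 9.994 kb, to Olfr278-ps1, Scgb1a1 and 1700012D14Rik. In the authors' deposited table the former had scores of 22.2, 11.4 and 5.93 and the latter of 10.4, 4.10 and 3.85.

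Regions deep in gene deserts looked different from those nearer to genes. Of the 103 regions over 200 kb from any start, 54.4% (44.3 to 64.2) were soft-masked over at least 50% of their bases, against 23.3% (21.6 to 25) at 10 to 20 kb, and 36.9% (27.6 to 47.0) had a multi-copy central word, against 12.2% (10.9 to 13.5). Their median score in the authors' deposited table was 16.6, against 9.54 at 10 to 20 kb, and 11.7% (6.17 to 19.5) had another intergenic far region within the linking distance used for clusters (about 13 kb), against 37.3% (35.3 to 39.3). The farthest of all, at chr11:13626264-13626392, lay 535.8 kb from the nearest annotated start, that of the pseudogene Gm12005, with 31.8% G and C and, by the authors' deposited table, a score of 20.2. The others among the 5 farthest were 394.6 to 502.8 kb from a start. A pair of them lay on the same side of the pseudogene Gm5110 on chromosome 6, with Nxph1, a gene for a secreted neurexin ligand, as the nearest coding gene.

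**Figure D3:**
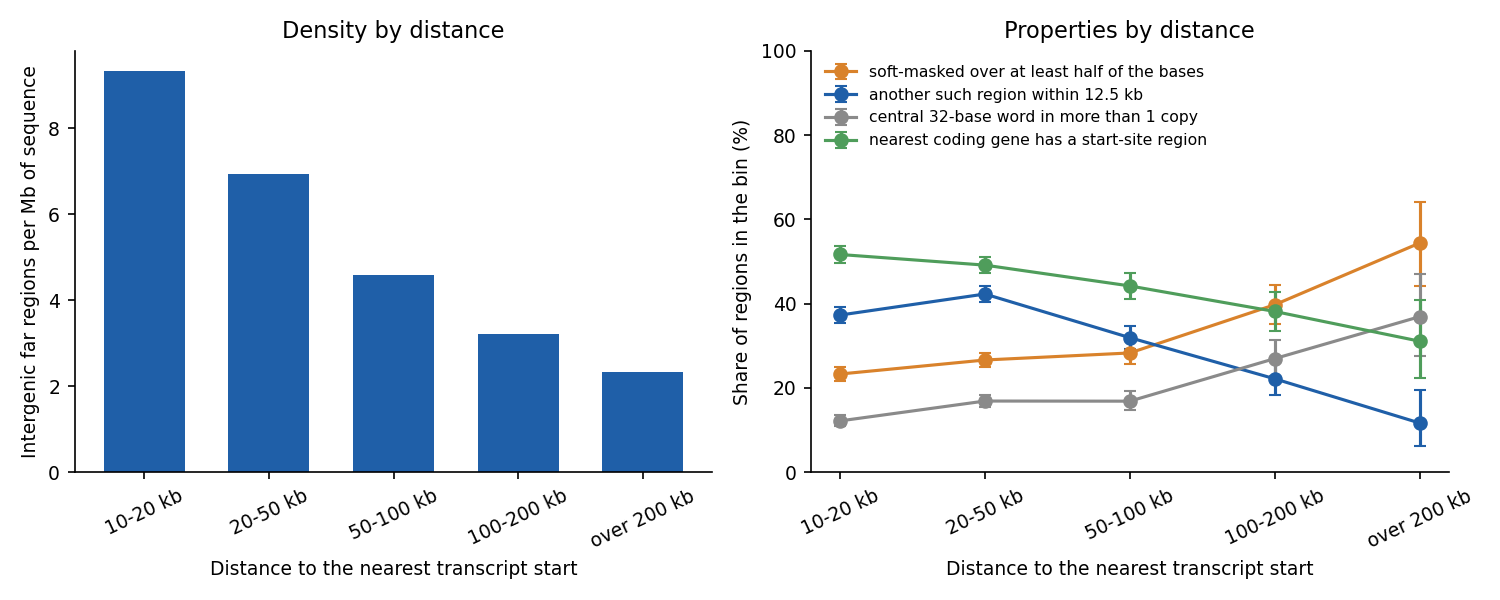
Left, intergenic far regions per Mb of sequence in 5 bins of distance to the nearest transcript start, going from 9.34 at 10 to 20 kb to 2.32 beyond 200 kb. Right, share of the regions in each bin (%) that are soft-masked over at least 50% of their bases, have another such region within the linking distance, have a central word in more than 1 copy, or have a nearest coding gene with a start-site region; bars are exact 95% intervals.

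The intergenic far regions had 3164 different protein-coding genes as their nearest, 14.4% of the 21938 in the annotation, and 1792 of these were nearest to a single region while 260 were nearest to 5 or more. The next question was whether these genes also carried a region at their own start. For 3142 regions (48.2%, 47.0 to 49.4) the nearest coding gene had a condition 2 region within 1 kb of a start, against 39.2% of all protein-coding genes. Counted once each, 1385 of the 3164 nearest genes (43.8%, 42.0 to 45.5) had such a start-site region. Of the other genes that also have far intergenic sequence nearest to them, 2787 of 8971 (31.1%, 30.1 to 32.04) had one, and of all 18774 other coding genes 7217 (38.4%, 37.7 to 39.1). The latter include 9803 genes with no far intergenic sequence nearest to them, of which 4430 (45.2%, 44.2 to 46.2) had one. Genes with a start-site region held 298 Mb of the far intergenic sequence nearest to them, with 10.5 regions per Mb, and genes without one held 737 Mb with 4.59 per Mb. The difference held at each size of that sequence, from 27.8 and 14.2 per Mb for genes with under 0.02 Mb to 3.65 and 2.26 per Mb for those with over 0.5 Mb. Chromosomes that are dense in one class are dense in the other, and their part in this difference was not tested. Regions lay upstream of the nearest coding start in 3763 cases (57.7%, 56.5 to 58.9). The rule leaves out gene spans, which lie downstream of starts, so this share is partly set by the rule. It was not compared with the share of all windows that meet the rule.

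Ezh2, the methyltransferase of Polycomb complex 2, was nearest to the most regions, 20, all within 1 cluster. Med13l, a subunit of the Mediator kinase module, and Pgrmc2, a haem-binding membrane protein, followed with 17 each. The regions nearest to Med13l (ENSMUSG00000018076.12, chromosome 5, plus strand) were spread from 47.7 to 433.2 kb from its start with a median score of 6.18 in the authors' deposited table. Those of Pgrmc2 (ENSMUSG00000049940.7, chromosome 3, minus strand) lay 14.5 to 236.0 kb away with a median score of 6.31 in that table. None of the 17 regions of Med13l and 1 of the 17 of Pgrmc2 had a multi-copy word, while 19 of the 20 of Ezh2 had one.

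Several transcription factors and corepressors were among the 20 genes with the most regions. Klf4, a zinc-finger factor of pluripotency and epithelial differentiation, had 16 regions between 119.4 and 600.6 kb from its start. Gm26657, whose regions follow those of Klf4 along chromosome 4, had 14 more. Nfib, a nuclear factor I gene of brain and lung development, had 14, Tbl1xr1, a subunit of a nuclear corepressor complex, had 14 and Irf2bp2, a transcriptional corepressor, had 15. Sox9, the factor of cartilage and glial development, had 13 regions up to 718.9 kb from its start, in a desert known for distant enhancers. Myc, the proto-oncogene, had 12, up to 819.4 kb away, Maf, a leucine-zipper factor, 12, and Twist2, a factor of mesenchymal cells, 12. Irf2bp2, Sox9, Maf and Gm26657 had no condition 2 region within 1 kb of a start, whereas Klf4, Nfib, Tbl1xr1, Myc and Twist2 had one. Per Mb of the far intergenic sequence nearest to each gene, the density was 31.5 for Klf4, 44.8 for Nfib, 14.5 for Sox9, 21.6 for Myc and 85.5 for Twist2, against 6.30 overall. The other genes of this set, Mroh5, Asap1, Gm12728, Brinp1, Adgrb1, Hrh1, Pdia4 and Dmac1, had 11 to 13 regions each.

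Set by function, the share of listed genes that were nearest to an intergenic far region ran from 16.7% for housekeeping genes to 66.7% for fibroblast and mesenchyme genes, beside 14.4% of all coding genes. The far intergenic sequence around a gene differs between lists, so the number of regions per Mb of it is given too, as description only. Among all coding genes that density itself fell as this sequence per gene grew, as given above, and the lists were not matched for it. Of 30 genes of fibroblasts and mesenchyme, 20 were nearest to at least 1 region, 71 regions in all at 16.4 per Mb. Twist2 had 12 of them, Col5a1, a fibrillar collagen chain, and Zeb2, a repressor of epithelial genes, 10 each, and Pdgfra, a growth factor receptor of mesenchymal and glial precursors, 5. Of 30 AP-1 and immediate early genes, 12 were nearest to 58 regions at 19.9 per Mb, with Klf4 and Myc first, then Klf6 with 6 and Nr4a2, a nuclear receptor induced by activity, with 4. In this list 25 of the 30 genes had a start-site region, against 39.2% of all coding genes.

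The 3 neural lists had densities from 2.28 to 6.24 regions per Mb, beside 6.30 for all coding genes. Far intergenic sequence was 8.04 Mb for forebrain and neural factors, 4.16 Mb for mature neurons and 17.97 Mb for axon guidance. It was 2.92 Mb for the AP-1 list and 4.32 Mb for the mesenchyme list. How much of the difference in density goes with this difference in sequence was not tested. Of 30 forebrain and neural transcription factors, 16 were nearest to 42 regions at 5.22 per Mb. After Nfib, these were Nr2f2, an orphan nuclear receptor, with 6, and Bcl11a and Dlx2, factors of cortical neurons and interneurons, with 3 each. In the list of 30 mature neuron and synapse genes, 7 were nearest to 26 regions at 6.24 per Mb, 11 of them at Stmn2, a microtubule regulator of growing axons, 4 at Gria1, a glutamate receptor subunit, and 3 at Cntnap2, a synaptic adhesion gene. Start-site regions were present at 5 of these 30 genes and at 12 of the 30 forebrain and neural transcription factors, beside 39.2% of all coding genes, and at 21 of 30 in both the fibroblast and mesenchyme list and the housekeeping list. The cells are labelled as hippocampal neurons. If, as the region names have it, regions shared by both levels are not listed, a gene missing here may still carry H3K9ac. Of 30 axon guidance and adhesion genes, 17 were nearest to 41 regions at 2.28 per Mb, led by Slit2, a secreted axon repellent, with 8 and Nrp1, a co-receptor for semaphorins and VEGF, with 5.

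Glucocorticoid-induced genes had little far intergenic sequence but many regions in it: 10 of 20 were nearest to 32 regions in 0.665 Mb, 48.1 per Mb. Errfi1, an inhibitor of the EGF receptor, had 7, Nfkbia, the inhibitor of NF-kappaB, 6 within 21.7 to 31.3 kb of its start, and Pdk4 and Ddit4, regulators of pyruvate use and of mTOR, 4 each. Housekeeping genes had a similar density, 13 regions in 0.275 Mb (47.2 per Mb), and both lists held little such sequence per gene. For comparison, the 6195 coding genes with under 0.02 Mb of far intergenic sequence had 27.8 regions per Mb where the gene had a start-site region and 14.2 where it had none. Of 30 TGF-beta and BMP pathway genes, 17 were nearest to 28 regions at 6.05 per Mb, and of 30 homeobox and Sox genes 14 were nearest to 43 at 6.47 per Mb, with Sox9 (13), Tbx3 (8) and Irx5 (4) first.

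Regions lay singly more often than in groups. Linked at a gap of at most about 13 kb, 4112 regions (63.1%) were alone, 1268 formed 634 pairs, 829 lay in 253 clusters of 3 to 4 and 311 in 46 clusters of 5 or more. Clustered regions had low scores and single ones high scores. Median scores in the authors' deposited table were 13.01 for single regions, 8.62 in pairs, 6.67 in clusters of 3 to 4 and 5.23 in clusters of 5 or more. The nearest coding gene had a start-site region for 42.6% (41.0 to 44.1) of the single regions and 54.5% (51.7 to 57.3) of those in pairs. The share was 58.4% (54.9 to 61.8) in clusters of 3 to 4 and 69.8% (64.3 to 74.8) in those of 5 or more. Regions of 1 cluster often share their nearest gene, and the 311 regions of the last group come from only 46 clusters. The intervals count regions as independent and are too narrow for that reason. Single regions were also the most often soft-masked over at least 50% of their bases, 30.9% (29.5 to 32.4), against 17.1% (14.6 to 19.9) in clusters of 3 to 4. By score, 50.5% (48.0 to 53.1) of regions under 5 had a neighbour and 24.5% (22.4 to 26.7) of those from 15 to 20. Intronic far regions went the same way, from 51.8% to 33.9%. The nearest coding gene had a start-site region for 52.2% (49.6 to 54.7) of regions with a score under 5 and 42.4% (39.96 to 44.9) of those from 15 to 20.

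**Figure D4:**
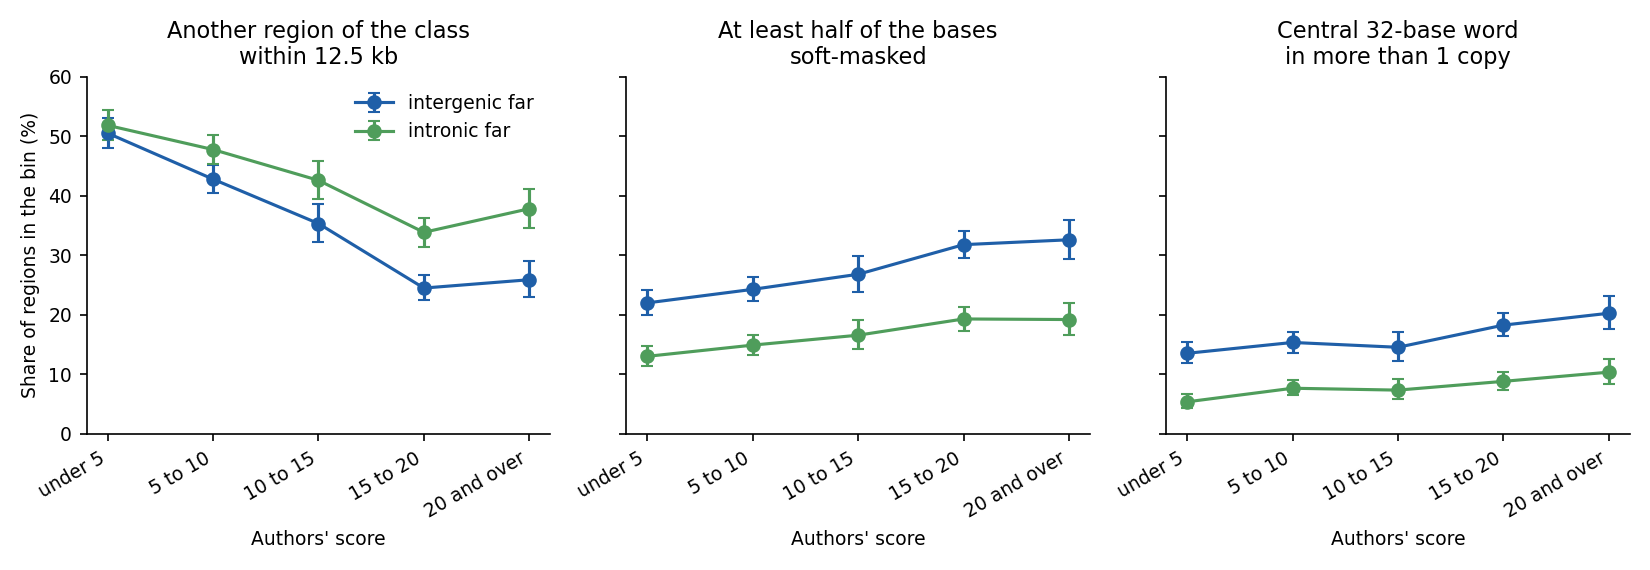
Share of regions (%) in 5 bins of the authors' score that have another region of their class within the linking distance, are soft-masked over at least 50% of their bases, or have a central word in more than 1 copy, for intergenic far and intronic far regions, with exact 95% intervals. From scores under 5 to scores of 15 to 20 the clustered share of intergenic far regions goes from 50.5% to 24.5%, and the soft-masked share from 22.0% to 31.8%. The bin from 15 to 20 holds 1604 intergenic far regions, 686 of them at the commonest exact score.

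The largest cluster was made of repeated sequence. It held 20 regions in 34.6 kb at chr6:47651094-47685691, 55.9 to 90.3 kb from the start of Ezh2, with a median of 61.3% G and C, 5.05 CpG per 100 bp and scores from 3.28 to 8.43 in the authors' deposited table. The central word of 19 of the 20 regions occurred more than once, 16 times in the median region, and for 17 of these 19 every copy in the genome lay within 100 kb of the cluster. A cluster of 12 regions lay 54.3 kb further on, at chr6:47739958-47766224, nearest to Pdia4, a protein disulphide isomerase, and to the Y RNA gene Rny3. All 12 had multi-copy words, all copies lay within 100 kb, and their median G and C was 63.6%. The 2 clusters shared sequence: 15 of the 20 regions of the first and all 12 of the second held a 32-base word found in a region of the other. The 2 sequences printed above for Ezh2 and Pdia4 come from these arrays.

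A further cluster of this kind, 9 regions at chr6:114536668-114575189 between Hrh1, a histamine receptor, and Atg7, an autophagy enzyme, had 2 to 56 copies of each central word, all within 100 kb, and a median of 81.0% soft-masked bases. It shared no 32-base word with the other 2 clusters. The 3 clusters held 19, 12 and 9 of the 66 multi-copy regions in clusters of 5 or more. Of the 46 clusters of 5 or more, 33 had no multi-copy region, 6 had multi-copy words in over 50% of their regions and 5 had at least 2 regions with a word in common.

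The remaining large clusters consisted mostly of unique sequence. On chromosome 4, 13 regions lay in 33.3 kb between Plin2, a lipid droplet coat protein, and Dennd4c, and 12 of them had a unique central word. Their scores in the authors' deposited table were mostly between 3.75 and 7.58, with 18.6 and 24.0 at 2 regions, the higher of which is the multi-copy sequence printed above. On chromosome 11, 9 regions in 15.2 kb lay 19.99 to 34.9 kb from the start of Socs3, a feedback inhibitor of cytokine signalling, with scores from 3.18 to 7.55 in the authors' deposited table. Another 9 on that chromosome lay between Tns4 and Ccr7, neither of which had a start-site region. On chromosome 15, 9 regions lay in 33.9 kb between Myh9, a non-muscle myosin heavy chain, and Txn2, and their median score in the authors' deposited table, 10.2, was the highest among the 10 largest clusters. The densest was on chromosome 1, where 8 regions lay in 6.15 kb, 102.7 to 108.7 kb from the start of Twist2. A cluster next to Haao on chromosome 17 also had 8 regions. No condition 1 region lay in any of these 10 clusters, but the whole list holds only 360 of them, 36 meeting the rule, so this absence says little.

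**Figure D5:**
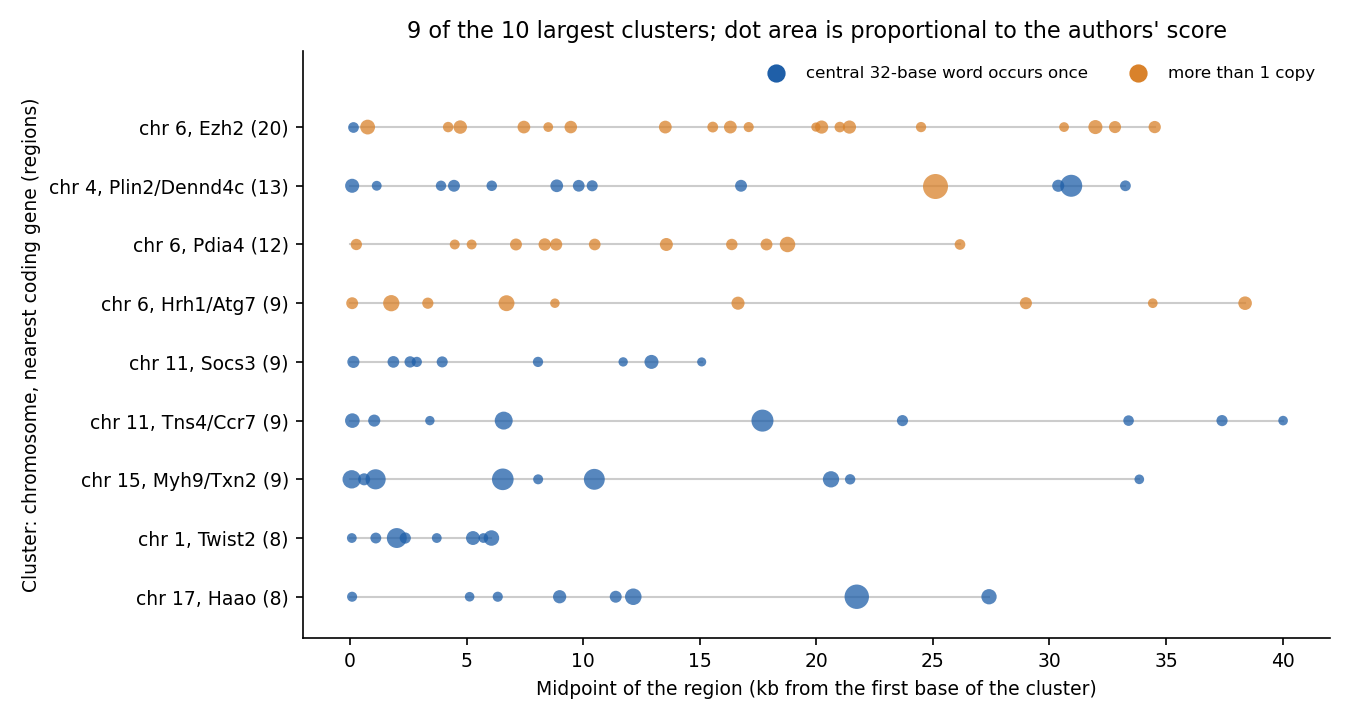
Midpoints of the regions of 9 of the 10 largest clusters in kb from the first base of each (horizontal axis); rows give the chromosome, the nearest coding genes and the number of regions, dot area is proportional to the authors' score, and colour separates unique central words from multi-copy ones. The 3 clusters on chromosome 6 consist almost wholly of multi-copy regions and the others almost wholly of unique ones.

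Known enhancers offered a comparison that the rule did not use. RefSeq lists 197 elements of the VISTA collection, which tests human and mouse sequences for enhancer activity in transgenic mouse embryos, with midpoints in the sequence that meets the rule. Of these, 22 (11.2%, 7.13 to 16.4) held an intergenic far region. Over all 197 the density was 60.5 per Mb, against 6.30 in the whole sequence that meets the rule. Density rose with G and C content, as given above, and no comparison at equal base composition was made here. Of the intergenic far regions, 30 overlapped a VISTA element and 33 any listed element (0.506%, 0.349 to 0.710), against 0.472% of intronic far and 0.114% of start-site regions. Of the 33, 13 scored under 5 and 12 from 5 to 10, beside 23.3% and 25.8% of all intergenic far regions. By the tissue of reported activity, of which an element may have several, 8 of 46 hindbrain, 7 of 50 midbrain, 7 of 59 forebrain, 6 of 37 heart and 3 of 65 limb elements held a region. The intervals of these shares overlap, from 0.962 to 12.9% for limb and from 7.82 to 31.4% for hindbrain.

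Examples span several tissues. Element mm997, active in the forebrain of 8 of 8 embryos and nearest to Klf7, a neuronal zinc-finger factor, held a region that scored 3.91 in the authors' deposited table. Element mm1295, active in the forebrain of 6 of 9 embryos, held 2 regions with scores of 4.70 and 5.14 and lies 72.6 kb from the start of Irf2bp2, one of the genes with the most regions. Element mm308, a heart enhancer in 4 of 7 embryos, and mm610, a limb enhancer in 3 of 5, held 2 regions each. Element mm568, nearest to Col1a1, the main chain of type I collagen, held a region with a score of 16.4 in that table.

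Motif letters were searched on both strands of the central 200 bp and are given beside all 200 bp windows of the same sequence. The AP-1 letters TGANTCA, with any middle base, were in 464 regions (7.12%, 6.50 to 7.77). They were in 6.0% of all windows and 6.83% of intronic far regions. The share was 8.61% (7.25 to 10.1) at scores under 5 and 6.54% (5.72 to 7.44) at 10 and over, with overlapping intervals. The Sp1 letters GGGCGG were in 4.10% (3.63 to 4.60) against 1.25% of windows, the CTCF core AGGGGGC in 2.68% (2.31 to 3.11) against 1.22% and the ETS letters CCGGAAG in 1.09% (0.851 to 1.37) against 0.433%. The E-box CACGTG was in 2.19% against 1.59% and the TEAD letters GGAATG in 12.7% (11.9 to 13.5) against 11.1%. The CEBP letters TTGCNNAA were in 8.71% (8.04 to 9.42) against 10.1%, and the RUNX letters TGTGGTT in 4.34% against 4.46%. The cAMP response element TGACGTCA was in 10 regions (0.153%) against 0.0879%, and the full glucocorticoid response element in 2 (0.0307%) against 0.0233%. A run of 6 or more CA dinucleotides was in 1.69% (1.39 to 2.03) against 2.86%. The regions have a higher G and C content than the windows, which bears directly on such counts, and no comparison at equal base composition was made. None of these motifs contains another one listed here.

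The 36 condition 1 regions that meet the same rule give wide intervals. Their median width was 154 bp, their median G and C content 49.2%, and 3 of them (8.33%, 1.75 to 22.5) were soft-masked over at least 50% of their bases, against 27.0% of the intergenic far regions of condition 2. Their median score in the authors' deposited table was 14.4, and none sat at the commonest exact score. The highest-scoring ones lay nearest to Col1a2, Tbcc and Inhbb.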

How the data were processed

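H3K9ac ChIP-seq of HT22 cells gave 4 libraries, which the labels group by kind (input or H3K9ac) only. The submitters' processing notes name CASAVA 1.8, Bowtie 1.0.0, MACS2 without a version, and build mm10. Per the series' design text, differences between the choline levels were called with bdgdiff. The deposited list gives 1 score per region, an unnamed column of the authors, used only to describe and rank regions. The scaling steps between libraries are not given in the sources used here.

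Positions were set against GENCODE M21 and the RefSeq GRCm38.p6 sequence, whose 21 chromosomes match mm10, with Python 3.11.15, NumPy 2.4.6, pandas 2.3.3 and SciPy 1.17.1. The background was every 200 bp window of the sequence meeting the rule. Soft-masked bases are lower case in the reference. Shares have exact (Clopper-Pearson) 95% intervals and densities exact Poisson ones. With 1 list and no replicates, no test was made. Scripts were tested on simulated data.

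Regions named were the 10 with the highest score, the 5 widest, the 5 farthest, the 3 just inside and outside 10 kb and the 10 largest clusters. Genes named were the 20 nearest to the most regions and up to 4 from each of 9 lists. Some of them are not reported here. Members and lists were chosen with earlier results of these data known. The alternatives tried are given in the closing section.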

Additional observations from a re-analysis of the deposited data

How the results depend on the processing

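Of 92 alternative values over 8 results, 44 stayed within the counting interval of the reported value (or, for the number of regions, within 1.5 times) and 48 moved outside it. No paired analysis was possible because the list has no values per library. The number of regions, 6520, became 3419 beyond 25 kb from a start, 1616 beyond 50 kb, 10246 with protein-coding genes only, 4190 at or above the median score of the list and 4067 without chromosomes 3, 4, 11 and 15. The median G and C content stayed between 46.0% (50 kb) and 48.1%: it was 46.8% at 25 kb, 48.1% with protein-coding genes only, 47.3% at or above the median score and 48.1% without the commonest exact score. The share of regions with at least 50% of their bases soft-masked, 27.0%, was 25.8% at 5 kb, 29.98% at 25 kb, 33.0% at 50 kb, 24.4% with protein-coding genes only, 29.8% at or above the median score, 25.9% without the commonest score and 15.8% where the central word occurs once. Any soft-masked base was present in 68.5%, and 10.9% were soft-masked throughout. The clustered share, 36.9%, was 38.7% at 5 kb, 33.5% at 25 kb, 26.7% at 50 kb, 43.1% with protein-coding genes only, 34.99% outside RefSeq genes, 20.9% at or above the median score and 34.6% without the 4 chromosomes; with linking distances of 5 and 25 kb it was 25.8% and 46.1%. The share whose nearest coding gene had a start-site region, 48.2%, was 50.1% at 5 kb, 45.04% at 25 kb, 41.7% at 50 kb, 49.9% with protein-coding genes only, 45.3% at or above the median score, 49.5% without the commonest score, 49.8% where the central word occurs once and 46.4% without the 4 chromosomes; it was 39.7% and 56.4% with start-site windows of 500 and 2500 bp and 43.8% with each gene counted once. The median width was 159 bp at 25 kb, 158.5 bp at 50 kb and 164 bp without the commonest score. The median score was 9.74 at 5 kb, 11.02 at 25 kb, 12.4 at 50 kb, 9.26 with protein-coding genes only, 17.0 at or above the median score and 8.70 without the commonest score. Settings without chromosomes or by central word were chosen after seeing the data. The cause of these shifts was not tested beyond what each setting's own construction changes.

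Depth per library is unknown here, and no limit from depth is given for any region. Each choline level stood on at most 1 ChIP library, and which level is condition 2 rests on the order in the region names. Intervals treat regions as independent, which neighbours in clusters and copies of repeats are not.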
